A study of Sus scrofa with 2 samples.

Results

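This account follows 10 genes of melanin synthesis and of the melanosome in the stria vascularis (SV) of pigs that carry a regulatory mutation of *Mitf*: *TYR*, *TYRP1*, *DCT*, *PMEL*, *MLANA*, *SLC45A2*, *SLC24A5*, *OCA2*, *GPR143* and *MC1R*. They were picked out of 27622 features by gene symbol, or by the Ensembl pig name for the feature without a symbol (*PMEL*), and each of the 10 genes matched a single feature. RNA of the cochlear lateral wall, which carries the SV, came from a heterozygous pig (Mitf R/r, 1 library) and a homozygous mutant pig (Mitf r/r, 1 library). Both pigs therefore carry the r allele, which holds small insertions in the distal promoter region of *MITF-M*, the melanocyte isoform; the R/r library is not a wild-type sample. The labels give the age as P1 (postnatal day 1), whereas the text of the study places the RNA-seq assay at embryonic day 85, and the files do not settle which holds. The sex of the pigs and the number of cochleae behind each library are not given in the sources used here.

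Melanin is made inside melanosomes, lysosome-related organelles of melanocytes. Tyrosinase, encoded by *TYR*, starts the pathway, and the related enzymes DCT and TYRP1 act on later intermediates, while PMEL forms the fibrils on which the pigment is laid down. Channels and carriers in the organelle membrane set its pH and ion content, and the melanocortin receptor MC1R at the cell surface turns the pathway up. In the SV the pigment cells are the intermediate cells, which take part in producing the endolymphatic potential, and MITF is the transcription factor best known for switching on pigment genes.

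The deposited values are RPKM, read numbers scaled to the exon length of a gene and to the mapped reads of a library, so that levels can be compared between genes per unit of length. The steps between low values gave back the whole reads behind them for 100% of 20862 features above 0, with library totals of 15829244 reads (R/r) and 14258672 reads (r/r). On a gene of 1 kb, a read was worth 0.0632 RPKM in R/r and 0.0701 RPKM in r/r. Each read number is the smallest one that yields a whole gene length; a common multiple of it may be the true one, which would narrow the intervals. Intervals are exact 95% intervals on these reads (Poisson for a level, Clopper-Pearson for a ratio) and cover counting error only. As each genotype was sequenced once, nothing checks a difference against the spread between replicates. It is a difference between a pair of libraries, without a p-value. In tissue RNA, fewer pigment cells and less RNA in each of them cannot be told apart.

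The 10 genes did not behave alike. *DCT*, *TYR*, *SLC45A2* and *PMEL* were nearly lost in the r/r SV, at between 0.695% and 3.31% of their R/r levels, and *MLANA* was listed at 0 there. *SLC24A5* and *GPR143* were partly kept, at 52.2% and 42.1%. *OCA2* was at the same level in both libraries within counting error, and *TYRP1* and *MC1R* had no more than 1 read in either library. A ratio could be formed for 7 genes, those above 0 in both SVs with at least 1 RPKM in either; 5 of them were lower in r/r by 2-fold or more and 0 were higher. Over all 16331 genes compared in the same way, 2.2% were at least 2-fold lower and 1.78% at least 2-fold higher.

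**Figure D1:**
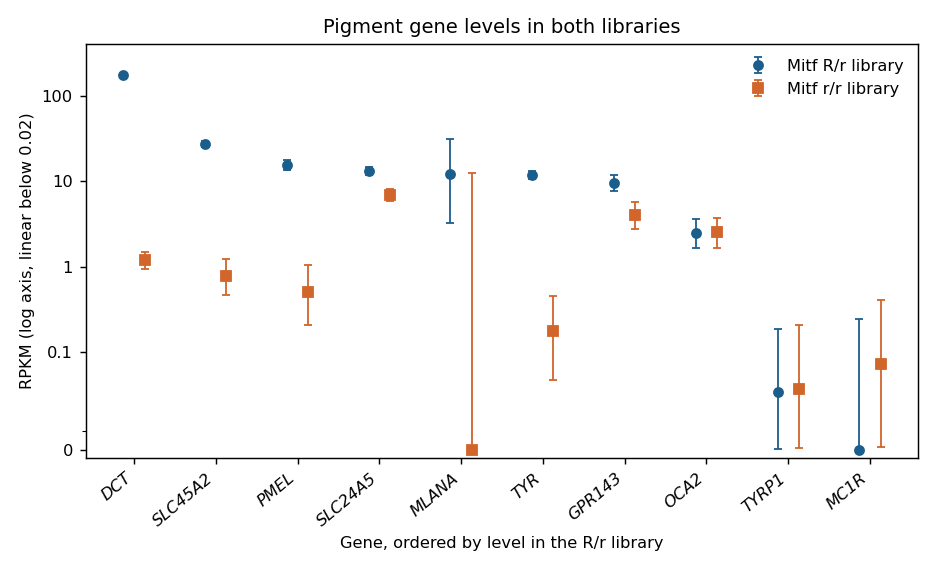
RPKM of the 10 pigment genes in the R/r library (circles) and the r/r library (squares), on an axis that is logarithmic above 0.02 and linear below; bars are exact 95% Poisson intervals from the smallest reads. The 4 genes *DCT*, *SLC45A2*, *PMEL* and *TYR* stand above 10 RPKM in R/r and at 1.19 RPKM or less in r/r, while the circles and squares of *OCA2* lie at 2.47 and 2.54 RPKM.

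Among the enzymes, *DCT* (ENSSSCG00000009490), the dopachrome tautomerase, was by far the most expressed pigment gene of the R/r SV. It had 171 RPKM in R/r (95% interval 168 to 175), from 11976 reads, and 1.19 RPKM in r/r (0.938 to 1.49), from 75 reads. Its rank among all features went from 471 to 15517. The log2 ratio was -7.17 (95% interval -7.52 to -6.84), a level 144-fold lower. Of 857 other genes within 2-fold of the R/r level of *DCT*, 6 were lower in r/r by 2-fold or more and 0 had a lower ratio than *DCT*.

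*TYR* (ENSSSCG00000026409), whose product catalyses the entry step of melanin synthesis, was at a far lower level than *DCT* from the start. It had 11.8 RPKM in R/r (10.5 to 13.2), from 297 reads, and 0.176 RPKM in r/r (0.0479 to 0.450), from 4 reads. The log2 ratio was -6.06 (-7.95 to -4.69), or 66.9-fold lower, with the wide interval set by the 4 reads. *DCT* stood at 14.6 times the RPKM of *TYR* in R/r and at 6.78 times in r/r, but the intervals of their ratios overlap.

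*TYRP1* (ENSSSCG00000005193), the third enzyme of the family, was not measurable in either SV. It had 0.0340 RPKM in R/r and 0.0377 RPKM in r/r, from 1 read each, where 3 reads would be worth 0.102 and 0.113 RPKM. No ratio is given at this depth. The low value of a feature need not be the level of its gene in this table: *ATP6V1B2*, a proton pump subunit used by most cells, also had 1 read in each library, and *CLCN7*, a lysosomal chloride transporter, had 1 read in R/r and was listed at 0 in r/r. Whether the *TYRP1* feature misses part of the transcript was not tested.

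The fibril protein was nearly lost, and its partner was listed at 0 in r/r on few reads. *PMEL* (ENSSSCG00000000371), which builds the amyloid fibrils of the early melanosome, had 15.5 RPKM in R/r (13.6 to 17.6), from 235 reads, and 0.513 RPKM in r/r (0.206 to 1.06), from 7 reads. Its log2 ratio was -4.92 (-6.25 to -3.85), or 30.2-fold lower.

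*MLANA* (ENSSSCG00000005206), a small melanosomal protein that takes part in the maturation of PMEL, had 12.0 RPKM in R/r, whereas the r/r library listed it at 0. Its reads are the least certain of the 10 genes. The smallest solution is 4 reads on 21 bases, and with 4 reads against 0 the interval still reaches past no change (upper end of the log2 ratio 0.75). The smallest multiple that makes the feature as long as a sequenced read of 100 bases is 20 reads on 105 bases. With those reads, a choice made after seeing the data, *MLANA* was at least 4.45-fold lower in r/r by its exact 95% interval, and 6.01-fold lower against a floor of 3 reads per library.

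The carriers and channels of the melanosome membrane split into nearly lost, partly kept and, within counting error, equal. *SLC45A2* (ENSSSCG00000016821), a carrier that raises melanosomal pH and whose loss causes albinism, had 27.1 RPKM in R/r (25.1 to 29.2), from 690 reads, and 0.785 RPKM in r/r (0.465 to 1.24), from 18 reads. The log2 ratio was -5.11 (-5.87 to -4.44), or 34.5-fold lower, which put *SLC45A2* with the enzymes and *PMEL*. It was the second of the 10 genes by level in the R/r SV.

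*SLC24A5* (ENSSSCG00000004662), a potassium-dependent sodium-calcium exchanger of pigment cells, kept about as much as it lost. It had 13.3 RPKM in R/r (11.9 to 14.8), from 317 reads, and 6.92 RPKM in r/r (5.86 to 8.13), from 149 reads. The log2 ratio of -0.94 (-1.23 to -0.65) lay below no change, and its interval holds the 2-fold line. Hence *TYR* and *SLC24A5*, which stood within 1.13-fold of each other per unit length in the R/r SV, were 39.4-fold apart in the r/r SV. The figure for r/r is imprecise, as it rests on 4 reads of *TYR* (0.0479 to 0.450 RPKM).

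*OCA2* (ENSSSCG00000015854), the melanosomal anion channel of oculocutaneous albinism type II, was weakly expressed in both SVs. It had 2.47 RPKM in R/r (1.64 to 3.57), from 28 reads, and 2.54 RPKM in r/r (1.66 to 3.73), from 26 reads. The log2 ratio was 0.04 (-0.78 to 0.87), so that no difference was detectable at this depth, and counting error leaves room for a level in r/r between 58.1% and 182% of that in R/r. The interval does not reach a 2-fold difference in either direction.

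The receptors were no more uniform. *GPR143* (ENSSSCG00000012103), the receptor in the melanosome membrane that is mutated in ocular albinism, had 9.56 RPKM in R/r (7.66 to 11.8), from 87 reads, and 4.03 RPKM in r/r (2.77 to 5.65), from 33 reads. Its log2 ratio was -1.25 (-1.87 to -0.65), or 2.37-fold lower, with an interval that holds the 2-fold line. *MC1R* (ENSSSCG00000020924), the receptor for melanocyte-stimulating hormone, was listed at 0 in R/r and at 0.0728 RPKM, or 1 read, in r/r. With 3 reads worth 0.197 RPKM in R/r and 0.218 RPKM in r/r, *MC1R* was not detectable beyond the depth of either SV.

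**Figure D2:**
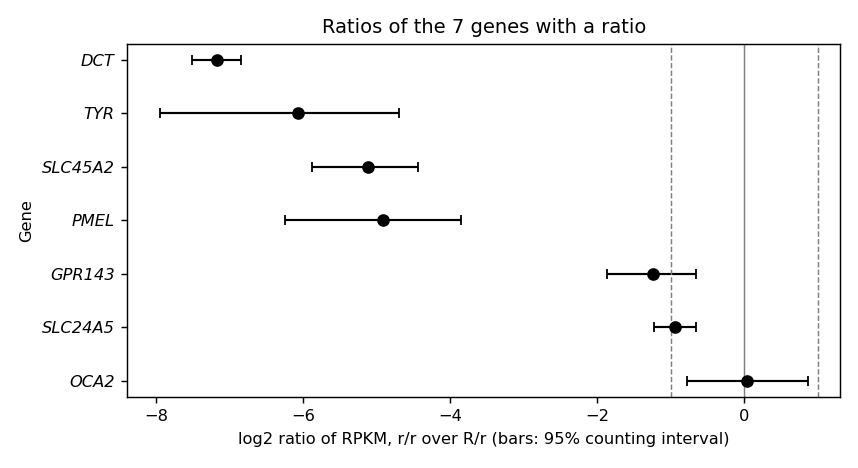
The log2 ratio of RPKM (r/r over R/r) of the 7 pigment genes that have a ratio, with exact 95% counting intervals; the solid line is no change and the dashed lines are 2-fold. *DCT*, *TYR*, *SLC45A2* and *PMEL* lie at -4.92 or lower with intervals wholly past the 2-fold line, *GPR143* and *SLC24A5* straddle it at -1.25 and -0.94, and *OCA2* lies at 0.04.

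The nearly lost genes were told from the rest by these same ratios and intervals, so the gap between them is a description. Within the nearly lost genes, the intervals of 2 of 6 pairs did not overlap, those of *DCT* with *SLC45A2* and with *PMEL*. Within *OCA2*, *SLC24A5* and *GPR143*, the intervals overlapped in each pair. A count by interval alone gave 4 genes wholly past 2-fold lower, against 0.355% of the genes compared.

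The unequal loss changed which genes made up the pigment signal. Summed over the 10 genes, RPKM was 263 for R/r and 16.3 for r/r, 16.2 times apart, and without *DCT* the sums were 91.7 and 15.1, or 6.08 times apart. *DCT* gave 65.2% of the sum for R/r and 7.33% for r/r. *SLC24A5* went from 5.04% to 42.6%, *GPR143* from 3.63% to 24.7% and *OCA2* from 0.937% to 15.6%. Per unit length, the signal left in the r/r SV was thus mostly that of an exchanger, a receptor and a channel, and little of it came from the enzymes.

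**Figure D3:**
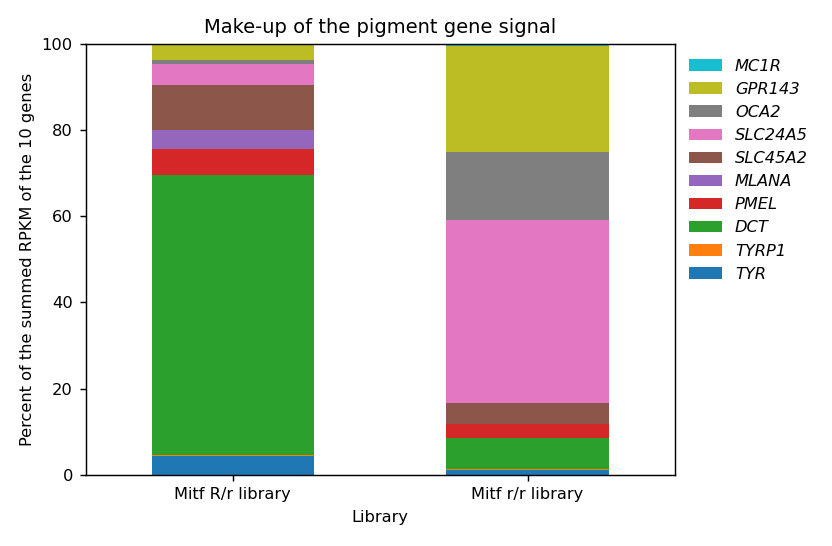
Percent of the summed RPKM of the 10 pigment genes that each gene gave in either library. *DCT* fills 65.2% of the R/r bar, and *SLC24A5*, *GPR143* and *OCA2* fill 42.6%, 24.7% and 15.6% of the r/r bar; the bars stand for sums of 263 and 16.3 RPKM.

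Set among all genes, the nearly lost genes stood at the far end of the lower side, *GPR143* and *SLC24A5* also lay toward that end, and *OCA2* did not. The share of compared genes with a lower ratio was 0.0122% for *DCT*, 0.0245% for *TYR*, 0.0367% for *SLC45A2* and 0.0429% for *PMEL*. It was 1.37% for *GPR143*, 2.51% for *SLC24A5* and 61.8% for *OCA2*. Genes of few reads cross 2-fold more often: among 14316 genes with at least 50 reads over both libraries, which all 7 genes with a ratio have, 1.04% were at least 2-fold lower.

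**Figure D4:**
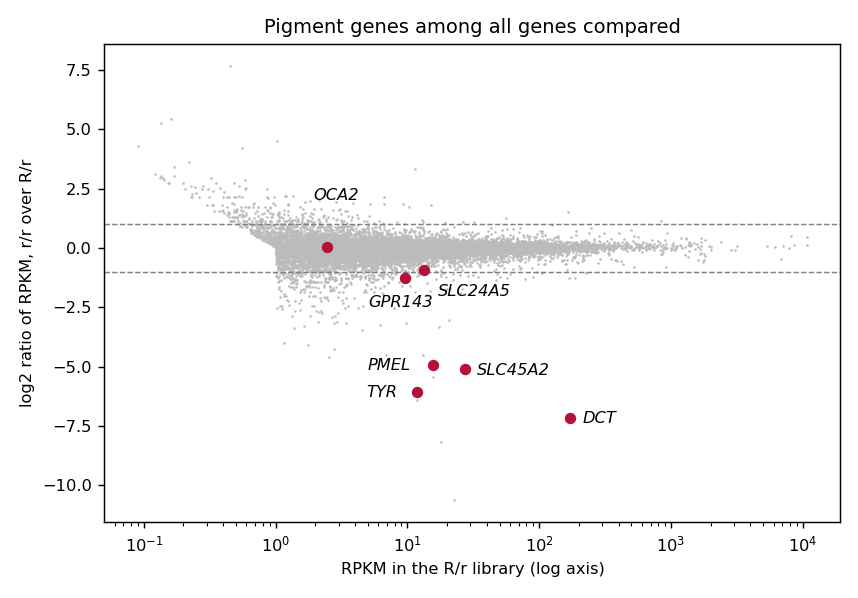
The log2 ratio of RPKM (r/r over R/r) against RPKM in the R/r library for the 16331 genes compared (grey points), with the 7 pigment genes that have a ratio in red and dashed lines at 2-fold. *DCT* stands alone at 171 RPKM and -7.17, whereas *OCA2*, *SLC24A5* and *GPR143* lie in or at the edge of the grey cloud.

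Genes of melanosome biogenesis, of melanosome ions, pH and cargo, of receptor signalling and of related sequence families were compared next. These 4 lists held 64 genes, of which 60 matched a feature and 50 could be compared. Across these lists 1 gene was lower in r/r by 2-fold or more and 1 was higher. Among all genes compared, 2.2% were lower and 1.78% higher by that rule, so these counts do not set the lists apart. In the list for melanosome biogenesis, which holds the sorting complexes that bring cargo to the organelle, 1 of 21 genes was at least 2-fold lower and 0 were higher, with a median log2 ratio of -0.03 against -0.02 for all genes compared. The exception was *RAB38*, a small GTPase that delivers TYR and TYRP1 to melanosomes, with 15.5 RPKM in R/r (338 reads), 0.357 RPKM in r/r (7 reads) and a log2 ratio of -5.44 (-6.77 to -4.38). The 3 genes of this list with the most reads were *HPS3* (39.1 and 50.3 RPKM in R/r and r/r), *CD63* (738 and 689 RPKM) and *LYST* (12.0 and 11.2 RPKM). Of these, *CD63* and *LYST* also serve lysosomes outside pigment cells.

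For ion, pH and cargo genes of the melanosome, 0 of 10 genes were 2-fold apart, and the median log2 ratio was -0.13. *ATP6V1A* of the proton pump had 42.5 RPKM in R/r and 43.7 RPKM in r/r, the amino acid carrier *SLC36A1* had 19.9 and 21.1 RPKM, and *OSTM1*, a partner of a lysosomal chloride transporter, had 21.3 and 23.9 RPKM. These genes are broadly expressed and stayed within a log2 ratio of -0.36 to 0.17.

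In the list for receptor signalling, 0 of 14 genes were at least 2-fold lower and 1 was higher, with a median of 0.05. That gene was *ASIP*, the secreted antagonist of MC1R, with 0.717 RPKM from 9 reads in R/r and 2.12 RPKM from 24 reads in r/r, a log2 ratio of 1.57 (0.41 to 2.86). *GNAS*, the G protein subunit that couples MC1R to cyclic AMP, had 1111 and 1165 RPKM, *ATRN*, a co-receptor for ASIP, had 50.6 and 51.4 RPKM, and *GNAI3* had 113 and 131 RPKM.

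Relatives of the carriers and receptors by sequence family were compared as well. Of 12 relatives, 5 passed the minimum level and 0 were 2-fold apart. *SLC45A4* had 9.22 RPKM in R/r and 7.23 RPKM in r/r, against the loss of *SLC45A2*, and *SLC24A3* had 17.3 RPKM in each library, against the partial loss of *SLC24A5*. *SLC8B1* had 5.39 and 4.53 RPKM. *MC3R* was listed at 0 in both SVs, and *MC2R* and *MC5R* had no more than 2 reads in either.

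**Figure D5:**
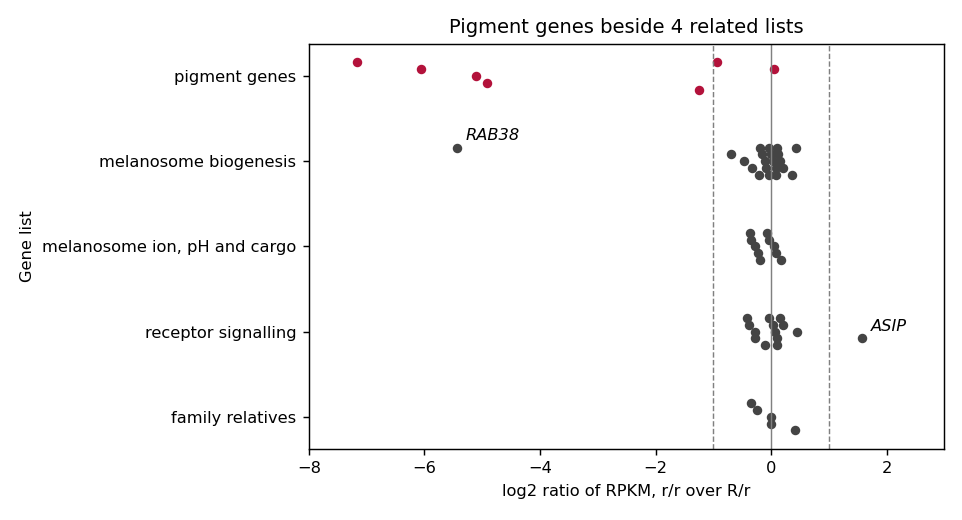
The log2 ratio of RPKM (r/r over R/r) of the 7 pigment genes with a ratio (red) beside the genes compared in 4 related lists (dark grey), with dashed lines at 2-fold. Of 50 genes in the 4 lists, *RAB38* at -5.44 and *ASIP* at 1.57 lie past 2-fold, and the other 48 lie between the dashed lines.

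Other genes of the melanocyte lineage were just as uneven. *MITF*, whose 3 features do not separate the M isoform, had 656 reads in R/r and 424 reads in r/r, a log2 ratio of -0.48 (-0.66 to -0.30). These are summed smallest reads, so the ratio itself would move if the true multiples differ between the features. The highest *MITF* feature alone had 51.7 and 37.8 RPKM, a log2 ratio of -0.45 (-0.75 to -0.16). *KIT* had 43.6 and 44.2 RPKM, *SOX10* 5.20 and 4.50 RPKM and *RAB27A* 6.09 and 6.01 RPKM in R/r and r/r, all within 2-fold. On the other side, *EDNRB* had 17.3 and 1.71 RPKM, and *TRPM1* had 22.7 RPKM (1776 reads) and 0.0142 RPKM (1 read). *PAX3* had 31 reads in R/r and none in r/r. With r/r set to a floor of 3 reads, *PAX3* was 9.31-fold lower, which is not a lower limit of the difference. Of the 8 lineage markers, 7 matched a feature. Of the 6 that could be compared, 2 were at least 2-fold lower (*EDNRB* and *TRPM1*), beside 2.2% of all genes compared. The 7 matched markers summed to 148 RPKM in R/r and 94.2 RPKM in r/r, with *MITF* counted by its highest feature only. That sum mixes nearly lost markers with little changed ones.

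The tissue carried the markers of the SV in both libraries. The 4 marginal cell markers measured summed to 1575 RPKM in R/r and 1160 RPKM in r/r, with 0 of 4 at least 2-fold lower. These markers did not move alike. *ATP1B2* had 915 and 522 RPKM, *KCNE1* 278 and 248 RPKM and *ESRRB* 69.6 and 56.1 RPKM, whereas *SLC12A2* was higher in r/r (312 and 334 RPKM). *KCNQ1* did not match a feature. The 3 basal cell markers measured summed to 984 and 833 RPKM, with 0 of 3 at least 2-fold lower. Among the basal cell markers, *CLDN11* had 840 and 706 RPKM and *TJP1* 71.7 and 71.5 RPKM. *CLDN9* was read from a feature listed as CLDN3 (72.2 and 55.9 RPKM). Over all genes compared, 2.2% were at least 2-fold lower and 1.78% at least 2-fold higher. The intermediate cell channels *KCNJ10* (listed as KIR1.2; 20.0 and 5.97 RPKM) and *KCNJ13* (11.8 and 0.140 RPKM) were both at least 2-fold lower. Pigment genes are also used by the retinal pigment epithelium, whose 5 markers summed to 5.60 and 6.06 RPKM. Of these, *BEST1* had 3.85 and 2.52 RPKM, a log2 ratio of -0.61 (-1.09 to -0.15). *RDH5* had 1.65 and 3.44 RPKM and was the 1 of 2 compared that was at least 2-fold higher in r/r. *RPE65* was listed at 0 in both libraries, and *RLBP1* and *LRAT* had no more than 4 reads in either. Summed marker levels also differed for fibrocytes (6880 and 4966 RPKM), bone (566 and 402 RPKM) and blood (1681 and 1414 RPKM). Of these 3 lists, 0 genes were 2-fold apart and no measured marker was at 0. The fibrocyte sum was mostly *COCH* (6826 and 4914 RPKM), beside *POU3F4* at 54.2 and 52.6 RPKM. In bone, *IBSP* had 431 and 268 RPKM and *BGLAP* 48.9 and 29.9 RPKM, whereas *SPP1* was higher in r/r (86.4 and 104 RPKM). The blood sum was mostly *HBB* (1655 and 1393 RPKM). The part of these cell types and tissues in the pigment gene values was not tested.

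Genes next to the 10 on the chromosomes were followed in an analysis added after the data were seen. The nearest gene on each side that could be compared, in the gene order of RefSeq (Sscrofa11.1), gave 20 neighbours. Of these, 1 was lower in r/r by 2-fold or more and 0 were higher, beside 2.2% and 1.78% of all genes compared. *GPC6* and *TGDS*, which flank *DCT*, had log2 ratios of 0.06 and 0.05, *DGKA* and *CDK2* beside *PMEL* had 0.13 and -0.25, and *CTSC* and *NOX4* beside *TYR* had -0.45 and 0.10. The exception was *ADAMTS12*, a secreted metalloprotease gene on one side of *SLC45A2*, with 5.72 RPKM in R/r, 1.83 RPKM in r/r and a log2 ratio of -1.65 (-1.91 to -1.39), whereas *AMACR* on the other side had 0.42 (-0.27 to 1.12).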

How the data were processed

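Lateral walls of the cochlea with the SV were sequenced in 1 Mitf R/r and 1 Mitf r/r library. Paired reads of 100 bases were quality filtered and mapped with TopHat (2.0.7) on Sscrofa10.2 by the authors, who deposited RPKM values per gene; the counting program, gene annotation and strand setting are not given in the sources used here. The table also holds 2 columns without headings, with the authors' differences and ratios for 22 features, which were not used. Members and lists were chosen with earlier results of these data known, and the named genes are all 10 members, each list gene at least 2-fold apart and the 3 of each list with the most reads. Ratios were computed from RPKM without a pseudocount. Reads were recovered by finding library totals that made gene lengths whole (100% of the 120 lowest features with equal reads, within 1.5 rounding errors plus 1e-06), and the steps were tested on simulated data. Names came from the table (16376 features), its descriptions (297) and Ensembl (1631). Alternatives covered pseudocounts, scaling, minimum levels, fold thresholds and intervals. Calculations used Python 3.11.15 with scipy 1.17.1, pandas 2.3.3 and numpy 2.4.6, and plots used matplotlib 3.10.9. Sequences of the genes were not analysed here, and a marker list is not reported here.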

Additional observations from a re-analysis of the deposited data

How the results depend on the processing

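No paired analysis was possible because each genotype has a single library. Depth limits *OCA2*, *GPR143*, *TYRP1*, *MC1R* and *MLANA*, and an effect of the animal or the dissection cannot be told apart from the genotype. The 10 genes each had 1 feature, so that summing features changed nothing. The number of pigment genes at least 2-fold lower, 5, stayed between 4 and 6 under all 13 alternatives run, and 0 were higher in the 12 of these for which that was counted. A minimum of 10 RPKM removes *GPR143* and a pseudocount brings in *MLANA*, by construction. Of 35 values of the 7 log2 ratios under other pseudocounts and scalings, 31 stayed inside their intervals and 0 changed sign among those past 2-fold; with a pseudocount of 1 RPKM, which pulls low levels together by construction, *DCT* became -6.30, *TYR* -3.44, *SLC45A2* -3.98 and *PMEL* -3.45. Genes at least 2-fold lower among all genes numbered 183 with a pseudocount of 1, 752 with no minimum, 107 and 54 with minimums of 5 and 10, 1031 at 1.5-fold, 73 at 4-fold, 58 by interval and 149 with at least 50 reads (an alternative chosen after seeing the data). Genes at least 2-fold higher numbered 134, 731, 71, 33, 740, 57, 48 and 105 in the same order. The pseudocount shrinks ratios of low levels by construction and also admits genes at 0 in either library. The minimums and the read limit change which genes can be counted, and the fold and interval settings change the cutoff. Among genes past the cutoff in either direction, the share that was lower in r/r was 55.3% and ranged from 50.7% to 62.1%. With no minimum, 2 relatives were lower (*SLC45A1* and *SLC24A1*), at 1.5-fold 2 biogenesis genes were lower (*RAB38* and *RAB32*), and with a pseudocount of 1 the higher receptor signalling genes numbered 0.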
